A study of Mus musculus with 18 samples.

Results

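Blood vessels of the cord were followed through 33 genes, taken as a fixed list out of 54446 gene identifiers: 17 of endothelial cells, 9 of pericytes, 5 of vascular smooth muscle, and the apelin pair of ligand (Apln) and receptor (Aplnr). Total RNA had been sequenced from the whole spinal cord, at 10 months of age and without treatment, in 6 genotypes with 3 mice each, giving 18 libraries. NTg were non-transgenic C57BL/6 mice, and the other groups were heterozygous knock-ins: Q22 and Q33 carried human ATXN2 with a tract of 22 or 33 glutamines, TDP-43 carried human TDP-43, and Q22;TDP-43 and Q33;TDP-43, here called the Q22 and Q33 double knock-ins, carried both. ATXN2 and TDP-43 are RNA-binding proteins linked to amyotrophic lateral sclerosis. The labels gave no sex, litter or line of origin, and the p-values measure the spread between these animals.

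The inner wall of a vessel is a single sheet of endothelial cells, which in brain and cord are sealed by tight junctions and carry transporters and efflux pumps, the blood-brain and blood-spinal cord barrier. Pericytes wrap the capillaries and smooth muscle cells wrap the arteries and arterioles; both are called mural cells. Apelin is a secreted peptide and its receptor a G protein-coupled receptor, known outside the nervous system from endothelial sprouting and vessel tone. Apelin is also made by other cells, neurons among them. In RNA from whole tissue, fewer cells of a type and less RNA per cell cannot be told apart.

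Gene counts summed to 16061359 to 30978678 per library, and 3 counts corresponded to 0.101 to 0.176 CPM (counts scaled to library size, here corrected by the TMM factor). Of the 33 genes 32 passed the filter on low counts. Cnn1, the smooth muscle protein calponin, did not, being listed at 0 to 0.335 CPM. The Q33 double knock-in libraries stood apart in several ways. Mitochondrial ribosomal RNA took 28.7%, 26.3% and 23.4% of their counts, against 12.7% to 23.4% in the other libraries. Hox10 and Hox11 genes, whose activity belongs to the lumbosacral end of the cord, averaged log2 CPM of 1.21, 3.54 and 0.55 in them and -0.78, -1.97 and -1.52 in NTg. That average was also above 1 in Q33 replicates 2 and 3 and in Q22 double knock-in replicate 1. The 12 neuron markers summed to 10200 to 12700 CPM in the Q33 double knock-in and to 6790 to 7860 CPM in NTg. Glial markers were lower or level: microglial sums were 204 to 231 CPM against 273 to 332 in NTg (2 of 10 genes called lower), oligodendrocyte sums 10500 to 13100 against 14300 to 16100 (2 of 10) and astrocyte sums 6780 to 8260 against 8170 to 8590 (3 of 10), with 0 of these 30 higher. Of all genes, 6.39% were called lower and 5.68% higher against NTg. Y-linked transcripts above 10 CPM were found in 0 of 3 NTg, 3 of 3 Q22, 2 of 3 Q33, 2 of 3 TDP-43 and, for either double knock-in, 1 of 3 libraries. The part of these properties in the results below was not tested except where a value is given. With Hox level, mitochondrial share and Y-linked transcripts so uneven between genotypes, these properties cannot be fully told apart from genotype. Between Q22 and NTg, sex as read from Y-linked transcripts differed in step with genotype in all libraries.

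Compared per length of transcript (RPKM, CPM per kilobase of exon, as means over the 18 libraries), the most abundant of the 33 genes was the pericyte gene Rgs5 (21.4), an inhibitor of G protein signalling. It was followed by Apln (21), the glucose transporter gene Slc2a1 (19.4) and Mcam (15.1), the adhesion molecule CD146. Slco1a4, an organic anion transporter of the barrier, was at 8.98, and Abcb1a, the efflux pump P-glycoprotein, at 6.82. Aplnr was the 20th, at 1.66, and the smooth muscle genes Acta2 (1.34), Myh11 (0.778) and Tagln (0.698) lay lower. Defining markers of endothelium such as Cdh5 (2.36) and Pecam1 (2.76) were measured in every library.

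Within genotypes most of these genes varied together from library to library, the apelin pair, Mcam and Acta2 least. After the genotype mean was removed from each log2 CPM value, the correlation between 2 endothelial genes had a median of 0.67 over 136 pairs, and that between an endothelial and a pericyte gene a median of 0.54 over 119 pairs, each over 18 libraries that share depth and scaling. With the mean of the endothelial genes, Rgs5 correlated at 0.94, Kdr (against the other 16) at 0.94 and Myh11 at 0.69. Values were low for Tagln (0.37), Acta2 (0.2), Mcam (0.12), Aplnr (0.07) and Apln (-0.24), and the correlation between Apln and Aplnr was -0.33. In these cords the levels of Apln, Aplnr, Mcam and Acta2 tracked the endothelial markers little from library to library. These correlations are descriptions over libraries, without a test.

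**Figure D1:**
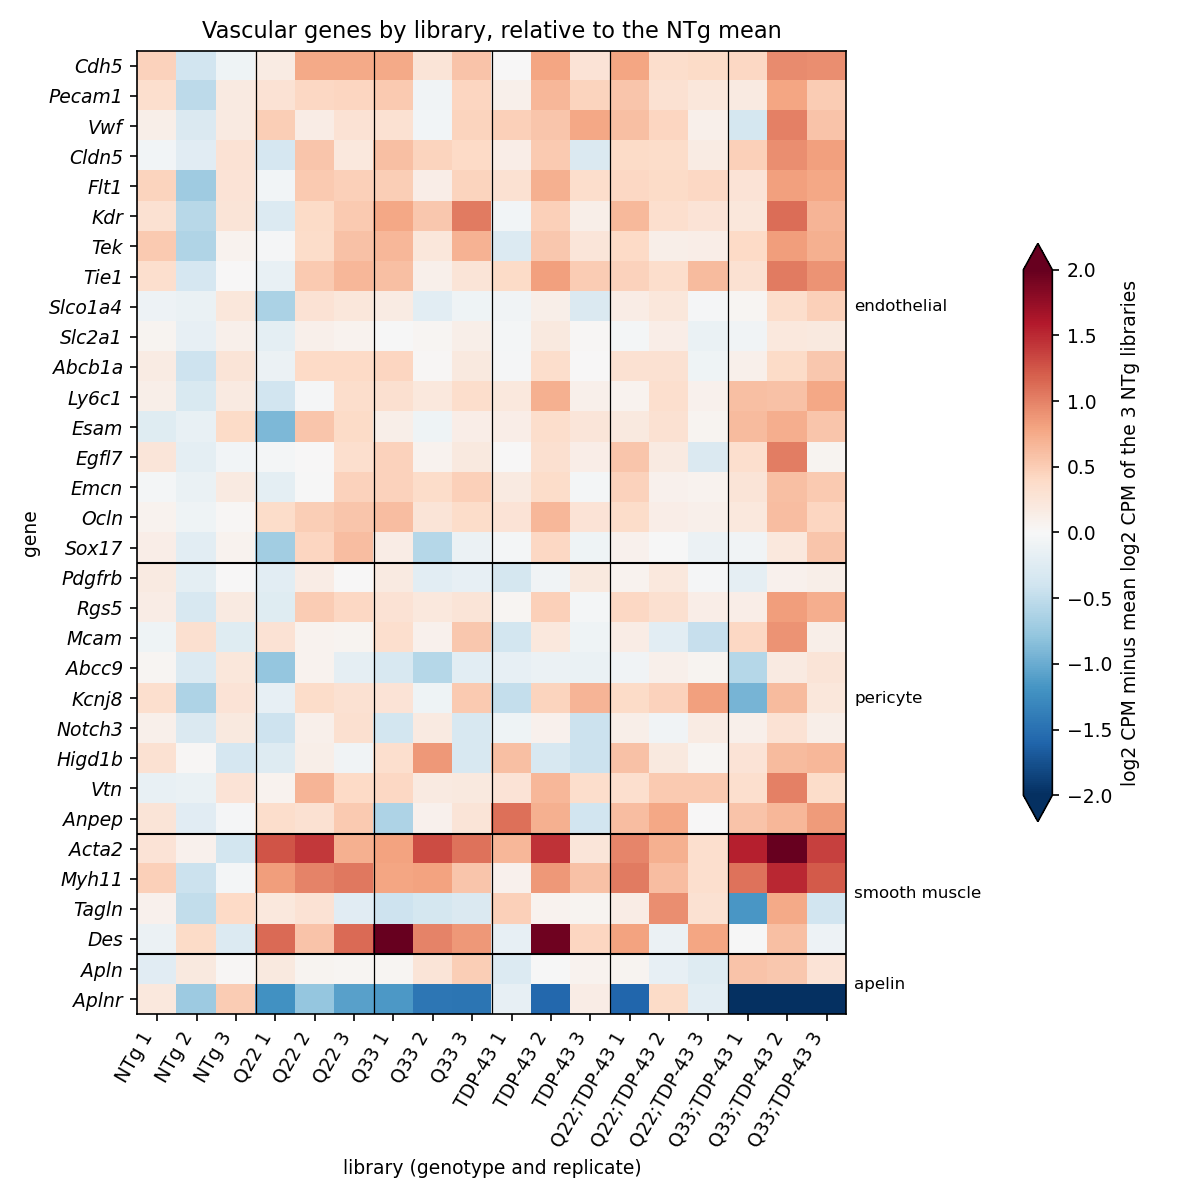
Heat map of the 32 genes tested (rows, by cell class) in the 18 libraries (columns, by genotype and replicate). Colour gives log2 CPM minus the mean log2 CPM of the 3 NTg libraries. NTg replicate 2 is pale to blue through most endothelial rows, Acta2 and Myh11 are red in most libraries outside NTg, and Aplnr is at the bottom of the scale in the 3 Q33;TDP-43 libraries.

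The apelin receptor was the vascular gene that differed most between genotypes, and all its calls involved the Q33 double knock-in, where it fell. Aplnr (ENSMUSG00000044338.9, chr2:85136225-85139923 on mm10, plus strand) stood at 12, 6.2 and 14.6 CPM in NTg. The Q22 libraries had 4.39, 5.98 and 4.82 CPM and the Q33 libraries 4.62, 3.73 and 3.67 CPM. All 6 lay below all NTg libraries, as for 5.62% of all genes in Q22 and 7.74% in Q33. TDP-43 animals had 9.19, 3.4 and 11.4 CPM, and the Q22 double knock-in 3.36, 13.4 and 8.89 CPM. Each of these groups had 1 low library and overlapped NTg. The Q33 double knock-in had 0.263, 0.643 and 0.221 CPM, from 7, 16 and 5 counts, below each of the other 15 libraries.

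By edgeR, Aplnr in the Q33 double knock-in differed by log2 -4.49 from the Q22 double knock-in (SE 0.58, adjusted p = 0.00018), from TDP-43 by -4.38 (SE 0.58, 0.00051) and from Q33 by -3.39 (SE 0.60, 0.011). Against NTg it was -4.84 (SE 0.58, 0.00012). These comparisons share the Q33 double knock-in libraries. Of all 20635 genes tested, 6.17%, 6.66%, 0.678% and 6.39% were lower in those 4 comparisons. Against NTg, Aplnr did not pass in Q33 (-1.45, SE 0.44, adjusted p = 0.66), Q22 (-1.11, SE 0.44, 0.91), TDP-43 (-0.46, SE 0.42, 1) or the Q22 double knock-in (-0.35, SE 0.42, 1). No gene of the whole table passed in the first 3 of these. From highest to lowest mean the order was NTg (10.9 ± 4.29 CPM, SD, n = 3), the Q22 double knock-in (8.56 ± 5.04), TDP-43 (7.99 ± 4.13), Q22 (5.06 ± 0.819), Q33 (4.01 ± 0.531) and the Q33 double knock-in (0.376 ± 0.232). The ranges of neighbours in that order overlapped except for the last pair.

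**Figure D2:**
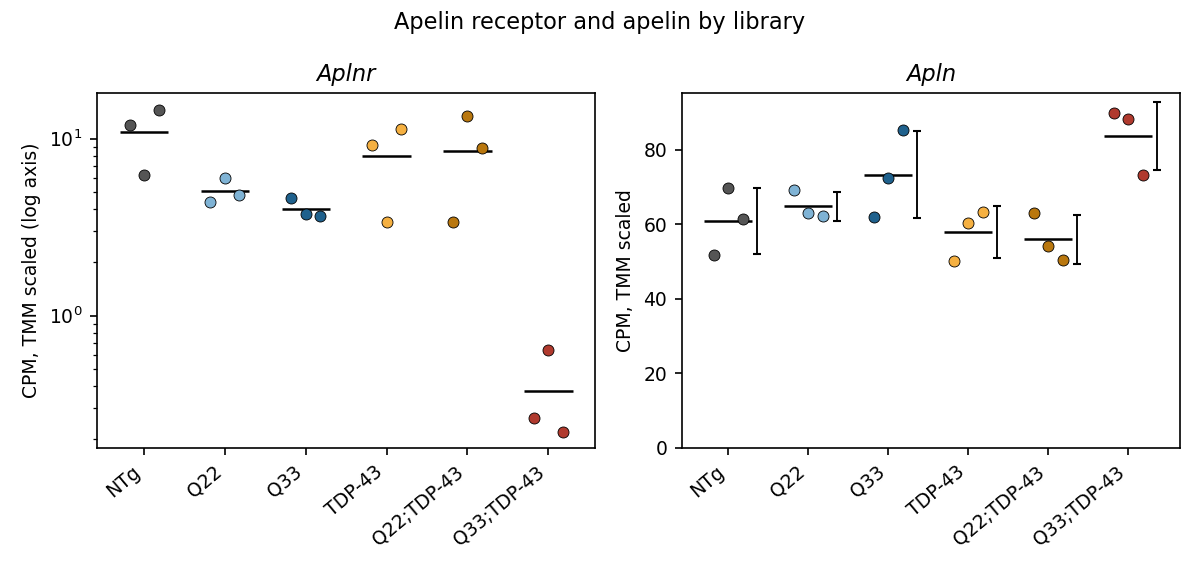
Aplnr (left, log axis) and Apln (right, linear axis from 0) in CPM for each library, by genotype; lines are group means and bars on the right panel are ± 1 SD (n = 3). Aplnr lies between 0.221 and 0.643 CPM in Q33;TDP-43 and at 3.36 CPM or above elsewhere, and Apln is highest on average in Q33;TDP-43.

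Whether the tract length mattered differently with and without TDP-43 was tested as an interaction. The difference of the Q33 from the Q22 double knock-in, less that of Q33 from Q22, was -4.15 for Aplnr (SE 0.75, adjusted p = 0.026). Aplnr was 1 of 32 vascular genes past the threshold there, where 0.344% of all genes passed. Without TDP-43 the difference of Q33 from Q22 was -0.34 (SE 0.45, adjusted p = 1). The interaction of Q33 with TDP-43 against NTg was -2.93 (SE 0.75, adjusted p = 0.23) and did not pass. The tract length interaction lost its call without any 1 of 8 of the 12 libraries in it (adjusted p 0.051 to 0.12, log2 values -4.29 to -3.66), the other 4 being Q33 replicate 3, Q22 double knock-in replicate 1 and Q33 double knock-in replicates 2 and 3. Against Q33 the call was lost without Q33 replicate 1 (-3.28, adjusted p = 0.065) or Q33 double knock-in replicate 1 (-3.17, 0.12).

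Library properties moved with the receptor, and their part in its fall was not tested beyond the fits given here. Over the 18 libraries log2 CPM of Aplnr correlated at -0.56 with the Hox10 and Hox11 level and at -0.79 with the mitochondrial ribosomal share, both of which differ between genotypes. Of 14 dorsal horn neuron genes 9 were lower and 1 was higher in the Q33 double knock-in against NTg, where 6.39% of all genes were lower and 5.68% higher. The mean log2 CPM of the 14 was 1.62 to 2.26 against 3.17 to 3.53. The 3 libraries of high Hox level outside the Q33 double knock-in had 3.73, 3.67 and 3.36 CPM of Aplnr, above the 0.221 to 0.643 CPM of the Q33 double knock-in. With the Hox level as a term of the fit, Aplnr against NTg was -4.4 (adjusted p = 0.0017), and with sex it was -4.75 (0.00034). With the mitochondrial ribosomal share as a term it was -4.29 (adjusted p = 0.035), and the call against TDP-43 (-3.76, 0.13), that against Q33 (-3.01, 0.25) and the tract length interaction (-3.68, 0.34) were lost. In that fit 0.136% of all genes passed against NTg, 0.0145% against TDP-43, and 0% against Q33 and in the interaction. Without the 3 other libraries of high Hox level, the call against Q33 (-3.58, 0.08) and the interaction (-4.74, 0.059) were lost too, where 0% of all genes passed.

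**Figure D3:**
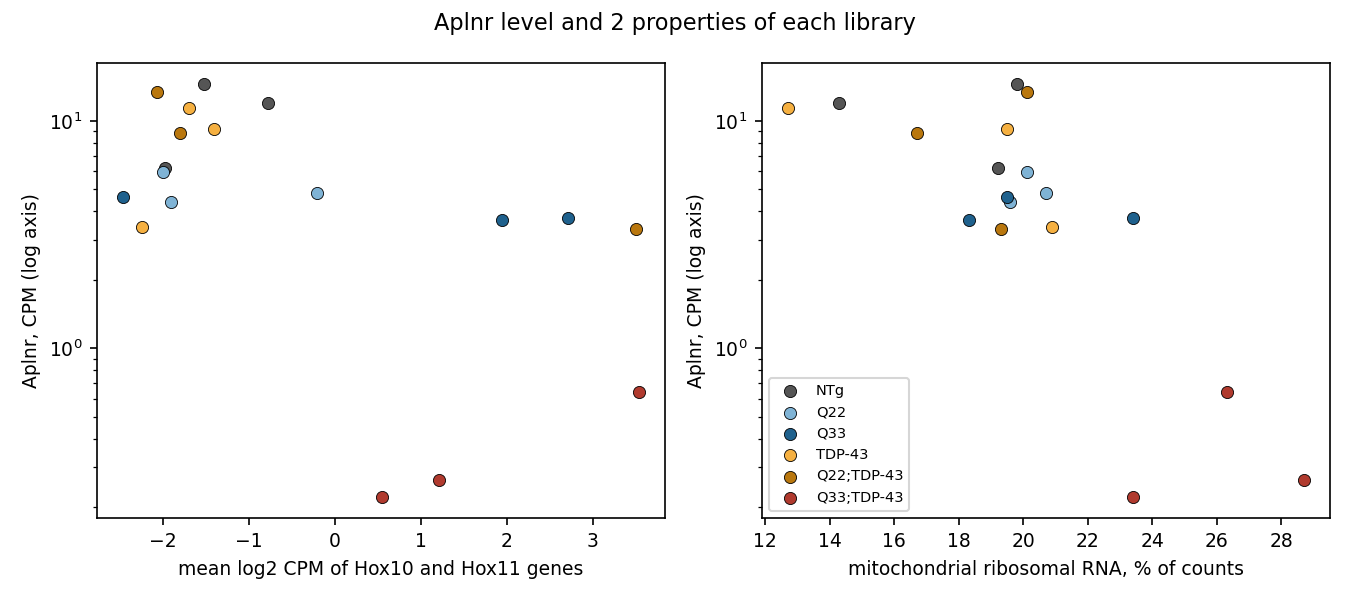
Aplnr in CPM (log axis) against the Hox10 and Hox11 level, a mean log2 CPM (left) and against the mitochondrial ribosomal share of counts (right), 1 point per library, coloured by genotype. The 3 Q33;TDP-43 points lie below 1 CPM at Hox levels of 0.55 to 3.54, where the 3 other libraries of high Hox level lie at 3.36 to 3.73 CPM.

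The ligand moved the other way and far less. Apln (ENSMUSG00000037010.7, chrX:48025146-48034853, minus strand) stood at 51.8, 69.6 and 61.4 CPM in NTg. The Q33 double knock-in had 89.8, 88.2 and 73.1 CPM, all above NTg. The Q22 double knock-in had 63.1, 54.1 and 50.5 CPM and TDP-43 animals 50, 60.3 and 63.3 CPM, also all below the Q33 double knock-in. The Q22 libraries (69.3, 62.9 and 62.3 CPM) lay below it too, while Q33 (62, 72.5 and 85.4 CPM) overlapped it. By edgeR, Apln in the Q33 double knock-in was higher by log2 0.46 than in NTg (SE 0.13, adjusted p = 0.031), by 0.58 than in Q22;TDP-43 (SE 0.13, 0.0089) and by 0.53 than in TDP-43 (SE 0.13, 0.015). Against Q33 the difference was 0.19 (SE 0.13, adjusted p = 0.47). Of the 12 neuron markers 4 were higher and 1 was lower in the Q33 double knock-in against NTg (median 0.61), where 5.68% of all genes were higher and 6.39% lower. The part of these markers in the level of Apln was not tested. The call against NTg was lost without NTg replicate 1 or 3 or Q33 double knock-in replicate 1 or 2 (adjusted p 0.075 to 0.13), under library totals (0.22, adjusted p = 0.22) and with the Hox level as a term of the fit (0.32, 0.24). That against the Q22 double knock-in was lost without its replicate 3 (0.06) or Q33 double knock-in replicate 1 (0.055), and that against TDP-43 without TDP-43 replicate 1 (0.065) or Q33 double knock-in replicate 1 (0.087). Library totals ended both (0.35, adjusted p = 0.054, and 0.30, 0.096). With the mitochondrial ribosomal share as a term all 3 calls were lost (adjusted p 0.45 for NTg, 0.3 for Q22;TDP-43 and 0.58 for TDP-43), with the Hox level also that against TDP-43 (0.38, 0.18), and with only the groups compared those against NTg (0.056) and TDP-43 (0.061). With the mitochondrial share as a term, 0.136%, 0.354% and 0.0145% of all genes passed against NTg, Q22;TDP-43 and TDP-43.

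The genes whose pattern was most like each of the pair were ranked by Pearson correlation of log2 CPM over the 18 libraries among 16266 genes of at least 1 CPM on average. For Aplnr these were Cd44 (0.97), a receptor for hyaluronan, Prkca (0.968), a protein kinase C, Sema3b (0.965), a secreted semaphorin, Esyt3 (0.962) and Sft2d2 (0.958). In the Q33 double knock-in Cd44 was at 6.49 ± 1.73 CPM against 28.7 ± 7.81 in NTg, and Prkca at 73.9 ± 7.78 against 140 ± 10.7 (SD, n = 3). For Apln they were Tubb3 (0.928), a tubulin of neurons, Endod1 (0.919), Armh4 (0.917), Lmo4 (0.916) and Slc9a8 (0.915). Tubb3 was at 394 ± 61.5 CPM in the Q33 double knock-in and 234 ± 32.5 in NTg. Among the vascular genes, Mcam had the highest correlation with Apln, at 0.85. The libraries share the genotype differences and the neuron marker levels given above, so these likenesses are descriptions only.

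Among the smooth muscle genes, Acta2 and Myh11 were called higher in the Q33 double knock-in against NTg. Tagln and Des were not called there, which does not show that their levels were equal. The genes were grouped in this way after their values were seen, and whether the groups differed from each other was not tested. Acta2 (smooth muscle actin, ENSMUSG00000035783.8, chr19:34241090-34255336, minus strand) stood at 1.38, 1.2 and 0.845 CPM in NTg. The Q33 double knock-in had 3.45, 5.83 and 3.01 CPM, with no overlap. The intermediate values were 2.79, 3.11 and 1.89 CPM in Q22, 2.01, 2.88 and 2.49 CPM in Q33, 1.81, 3.19 and 1.34 CPM in TDP-43 and 2.29, 1.89 and 1.43 CPM in Q22;TDP-43. Except for TDP-43 replicate 3, each library of the 5 knock-in genotypes was above all 3 NTg libraries.

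Myh11 (smooth muscle myosin heavy chain, ENSMUSG00000018830.10, chr16:14194535-14291372, minus strand) had 4.83, 2.55 and 3.38 CPM in NTg and 7.43, 10 and 8.18 CPM in the Q33 double knock-in, whose lowest library exceeded each of the other 15. Q22 had 6.28, 6.96 and 7.25 CPM and Q33 6.08, 6.11 and 5.13 CPM, again above NTg. TDP-43 (3.69, 6.36 and 5.23 CPM) and the Q22 double knock-in (7.24, 5.35 and 4.38 CPM) overlapped it. By edgeR, the Q33 double knock-in exceeded NTg by log2 1.83 for Acta2 (SE 0.34, adjusted p = 0.0034) and 1.24 for Myh11 (SE 0.23, 0.0037). These 2 of the 4 smooth muscle genes tested were called higher, where 5.68% of all genes were, and the calls held without any 1 of the 6 libraries (Acta2 1.49 to 2.01, Myh11 1.05 to 1.53). They were lost with the mitochondrial ribosomal share as a term of the fit (Acta2 1.27, adjusted p = 0.37, and Myh11 1.32, 0.18). In that fit 0.136% of all genes passed in either direction, beside 12.1% without the term.

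Against the other genotypes the smooth muscle difference was smaller. Acta2 in the Q33 double knock-in exceeded the Q22 double knock-in by 1.13 (SE 0.32, edgeR adjusted p = 0.029), where 6.67% of all genes were higher. Myh11 exceeded TDP-43 by 0.73 (SE 0.23, 0.041), where 5.98% were. Both calls were lost without several single libraries, Acta2 without Q22;TDP-43 replicate 2 or 3 or Q33;TDP-43 replicate 1 or 2 (adjusted p 0.063 to 0.15), Myh11 without TDP-43 replicate 1 or 3 or any 1 of the Q33 double knock-in libraries (0.055 to 0.15). Acta2 was also lost with the Hox level (0.95, adjusted p = 0.091) or the mitochondrial ribosomal share (0.66, 0.59) as a term and with only the groups compared (0.052). Myh11 was also lost under library totals (0.51, 0.11), with terms for sex (0.07), Hox level (0.50, 0.32) or mitochondrial ribosomal share (0.56), and with only the groups compared (0.099). With the mitochondrial share as a term, 0.354% of all genes passed against the Q22 double knock-in and 0.0145% against TDP-43. Against Q33 neither passed (Acta2 0.74, SE 0.32, adjusted p = 0.23, and Myh11 0.57, SE 0.23, 0.19). Against NTg the 4 other genotypes had log2 fold changes of 0.71 to 1.17 for Acta2 and 0.51 to 0.92 for Myh11, none past the threshold in comparisons where at most 0.00969% of all genes were.

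Tagln, an actin-binding protein, had 1.38, 0.886 and 1.73 CPM in NTg and 0.525, 2.25 and 0.973 CPM in the Q33 double knock-in (log2 fold change -0.11, SE 0.40, edgeR adjusted p = 0.9). Des, the intermediate filament desmin of all muscle, had 0.307, 0.469 and 0.267 CPM against 0.338, 0.562 and 0.31 CPM (0.23, SE 0.60, 0.85). Des was highest in Q33 replicate 1 (1.75 CPM) and TDP-43 replicate 2 (1.55 CPM). Read pairs that matched several genes were not counted, so the level of Acta2, whose sequence is close to that of other actins, is uncertain. The 10 skeletal muscle markers, taken as a measure of muscle left on the cord, summed to 31.6 to 47.6 CPM in the Q33 double knock-in and 19.7 to 28.8 CPM in NTg. However, 1 of their 7 tested members was higher (5.68% of all genes) and their median log2 fold change was -0.9. The 1 higher, named after its value was seen, was Pvalb (0.88, edgeR adjusted p = 0.023). The mean log2 CPM of the 10 was -2.02 to -1.44 in the Q33 double knock-in and -1.53 to -1.4 in NTg. The part of Pvalb in the sum was not tested.

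**Figure D4:**
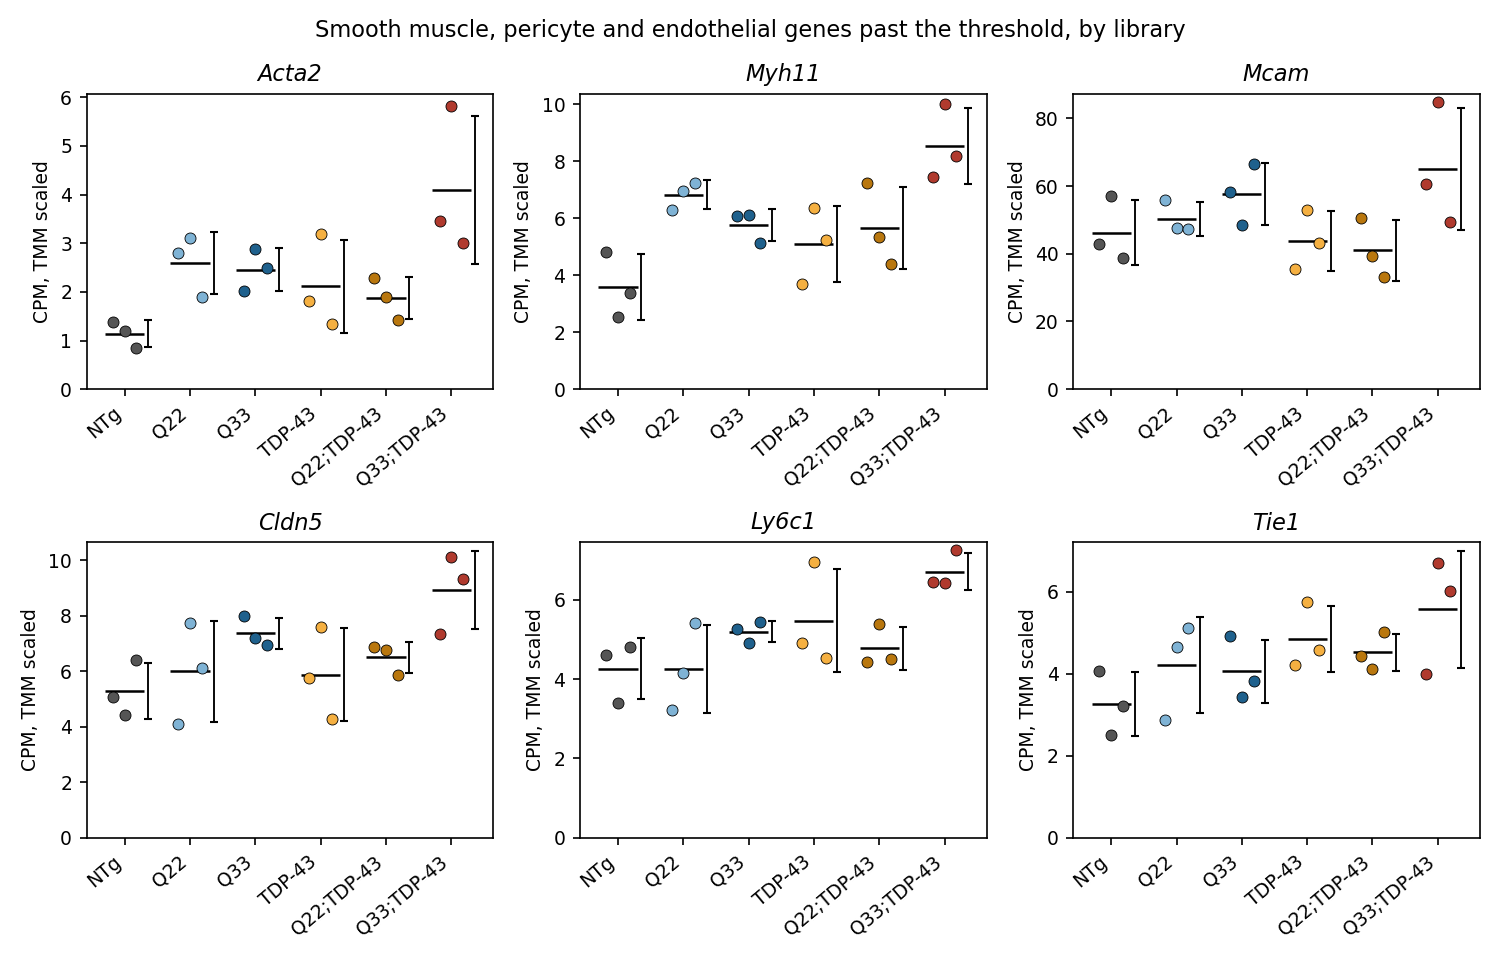
CPM (linear axes from 0) of 6 vascular genes that passed the threshold in at least 1 comparison, per library and genotype; lines are group means and bars ± 1 SD (n = 3). Acta2 and Myh11 are lowest in NTg and highest in Q33;TDP-43, and the endothelial genes Cldn5, Ly6c1 and Tie1 have their highest means in Q33;TDP-43 with more overlap.

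Endothelial genes lay higher in the Q33 double knock-in than in NTg by a median of 0.52 on the log2 scale. All 17 had positive values, from 0.12 (Slc2a1) to 0.76 (Tie1), beside a median of -0.01 over all genes tested, and the sums of the 17 were 345 to 474 CPM against 245 to 355 CPM. The 3 that passed were Cldn5, Tie1 and Ly6c1, where 5.68% of all genes were called higher, and 12 had an unadjusted p under 0.05, as did 28.4% of all genes. Under library totals the median of all genes moved to -0.25 and that of the endothelial genes to 0.27, with 16 of 17 positive (Slc2a1 at -0.12) and none of the 3 calls kept (adjusted p 0.11 to 0.16). With DESeq2-type size factors 5 were called, beside 12.5% of all genes. In 5 of 17 genes (Cldn5, Ly6c1, Esam, Emcn and Ocln) all Q33 double knock-in libraries were above all NTg libraries, as in 14.4% of all genes.

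Cldn5 (the tight junction protein claudin-5, ENSMUSG00000041378.2, chr16:18776847-18778262, plus strand) had 5.06, 4.43 and 6.41 CPM in NTg and 7.35, 10.1 and 9.33 CPM in the Q33 double knock-in. Its log2 fold change was 0.75 (SE 0.22, edgeR adjusted p = 0.036). Ly6c1, a surface antigen of mouse brain endothelium (ENSMUSG00000079018.10, chr15:75044018-75048830, minus strand), had 4.6, 3.39 and 4.8 CPM against 6.45, 6.43 and 7.25 CPM (0.65, SE 0.20, 0.041). Its near copy Ly6c2 shares reads with it, and pairs that match both were not counted. Tie1, the partner of the angiopoietin receptor (ENSMUSG00000033191.14, chr4:118471191-118490061, minus strand), had 4.06, 2.5 and 3.2 CPM against 3.98, 6.71 and 6.01 CPM, with overlap (0.76, SE 0.24, 0.049).

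These 3 endothelial calls lay close to the threshold (edgeR adjusted p 0.036 to 0.049), and leaving out 1 library often ended them. In the fits that ended a call, log2 values were 0.51 to 0.75 for Ly6c1, 0.64 to 0.88 for Cldn5 and 0.6 to 0.75 for Tie1. Without 1 library, 2.84% to 14.4% of all genes passed against NTg, beside 12.1% in the full fit. Ly6c1 was lost without any 1 of the 6 libraries (adjusted p 0.067 to 0.14), Cldn5 without NTg replicate 1 or 2 or any 1 of the Q33 double knock-in libraries (0.059 to 0.12), and Tie1 without NTg replicate 2 or 3 or Q33 double knock-in replicate 2 or 3 (0.093 to 0.17). With sex as a term of the fit they were at 0.053 (Cldn5), 0.061 (Ly6c1) and 0.063 (Tie1), with the Hox level at 0.14, 0.13 and 0.15, and with the mitochondrial ribosomal share at 0.61, 0.51 and 0.32. Of all genes, 10.2%, 2.57% and 0.136% passed against NTg with these terms. NTg replicate 2 had the lowest level of its group in 16 of 17 endothelial genes, and Q33 double knock-in replicate 1 in 14 of 17. Flt1, the VEGF receptor that binds the ligand without strong signalling, was at 92.5, 41.3 and 81.3 CPM in NTg and 81.9, 120 and 115 CPM in the Q33 double knock-in (0.56, SE 0.22, adjusted p = 0.1).

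Among the other junction genes Cdh5, the adhesion molecule VE-cadherin, was at 9.7, 5.37 and 6.58 CPM in NTg and 9.38, 13.6 and 13.4 CPM in the Q33 double knock-in (0.74, SE 0.24, edgeR adjusted p = 0.054). Ocln, the tight junction protein occludin, was at 9.24, 8.24 and 8.94 against 10.2, 13.6 and 11.9 CPM (0.43, SE 0.14, 0.059). Esam (0.62), Emcn (0.47) and Pecam1 (0.46), all surface proteins of endothelium, had adjusted p-values of 0.11, 0.12 and 0.15. Growth factor receptors Kdr (0.66), the main signalling receptor for VEGF, and Tek (0.58), the receptor for angiopoietins, had 0.091 and 0.12. The secreted proteins Egfl7 (0.52) and Vwf (0.49) had 0.16 and 0.2. None of these 9 genes passed.

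The transporter genes of the barrier had the smallest differences of the endothelial list, with Sox17, a transcription factor of arterial endothelium (0.24, SE 0.29, edgeR adjusted p = 0.63). Abcb1a was at 36.3, 24.3 and 39.1 CPM in NTg and 35, 42.8 and 47.3 CPM in the Q33 double knock-in (0.32, SE 0.18, 0.26). Slco1a4 was at 51.1, 50.6 and 64.7 against 56.5, 70.6 and 77.3 CPM (0.30, SE 0.19, 0.31). Slc2a1 was at 68.8, 59.1 and 71.3 against 63.5, 77.1 and 76.2 CPM (0.12, SE 0.11, 0.5). Values of Abcb1a exclude read pairs that also match its copy Abcb1b. Whether transporters and junction genes differed from each other was not tested.

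**Figure D5:**
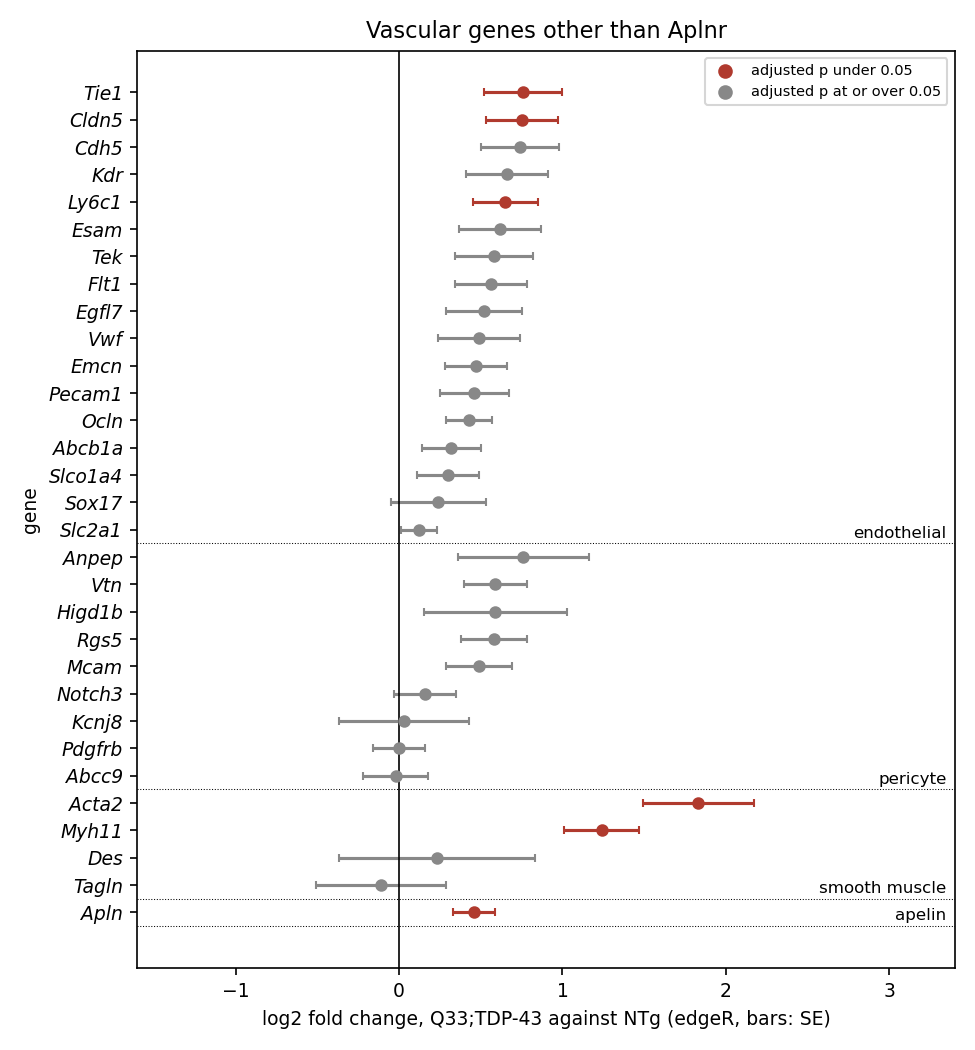
Log2 fold changes of Q33;TDP-43 against NTg (x axis, edgeR estimates, bars 1 SE) for 31 vascular genes by class, leaving out Aplnr at -4.84; red points passed an adjusted p of 0.05. All endothelial points lie to the right of 0, from 0.12 to 0.76, and Acta2 (1.83) and Myh11 (1.24) lie farthest right.

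The promoters of the called genes that lie outside annotated exons are shown because GGAA, on either strand, is the core letters bound by ETS factors, a family known to act on endothelial genes. RefSeq promoters on GRCm38.p6 were found for 23 of the 33 genes. In the 250 bases before the start site, 10 of 12 endothelial genes with an entry held a GGAA, beside 93.4% of 32851 promoters of all genes. Among the called genes below, Cldn5 (chr16:18776597-18776846, plus strand) held none, Ly6c1 (chr15:75048838-75049087, minus strand) 4 and Apln (chrX:48034854-48035103, minus strand) 3, in capitals, read 5′ to 3′ along the gene's strand:
Cldn5: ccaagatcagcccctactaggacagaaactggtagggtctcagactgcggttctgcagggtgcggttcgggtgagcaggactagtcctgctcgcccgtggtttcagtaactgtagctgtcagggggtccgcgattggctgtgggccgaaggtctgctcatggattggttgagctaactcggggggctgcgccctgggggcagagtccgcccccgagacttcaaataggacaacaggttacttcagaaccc
Ly6c1: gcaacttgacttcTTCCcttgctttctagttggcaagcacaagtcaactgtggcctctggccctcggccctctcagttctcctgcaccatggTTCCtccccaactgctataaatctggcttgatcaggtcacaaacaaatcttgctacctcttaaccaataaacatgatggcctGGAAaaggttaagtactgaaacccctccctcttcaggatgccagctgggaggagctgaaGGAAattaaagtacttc
Apln: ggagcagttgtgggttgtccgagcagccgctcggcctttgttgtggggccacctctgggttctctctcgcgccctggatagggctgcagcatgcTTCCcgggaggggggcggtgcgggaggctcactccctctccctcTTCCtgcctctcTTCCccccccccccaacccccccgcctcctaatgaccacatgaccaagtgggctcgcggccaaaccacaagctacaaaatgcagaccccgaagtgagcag
So a GGAA was common in all promoters, and of the 3 genes printed Cldn5 alone held none in this window. The other called genes with an entry, whose windows overlap exons, held 7 (Tie1), 3 (Acta2) and 1 (Mcam). A match in letters is a description and not a site.

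In pericytes the picture was mixed, and 0 of the 9 genes passed against NTg by edgeR at adjusted p under 0.05, beside 12.1% of all genes. At an unadjusted p under 0.05 there were 3, beside 28.4% of all genes, and DESeq2 called 2, Rgs5 and Vtn, beside 18%. Their median log2 fold change was 0.49, with 8 of 9 positive, and 5 of 9 positive under library totals (median 0.25). Rgs5 was at 89.5, 63.9 and 90.4 CPM in NTg and 87.9, 144 and 133 CPM in the Q33 double knock-in (0.58, SE 0.20, adjusted p = 0.061). Vtn, the matrix protein vitronectin, was at 6.44, 6.57 and 8.72 against 9.04, 14.5 and 9.24 CPM, with no overlap (0.59, SE 0.19, 0.053). Anpep (aminopeptidase N) and Higd1b, both below 1.2 CPM in every library, were at 0.76 (SE 0.40, 0.23) and 0.59 (SE 0.44, 0.4); Anpep did not overlap between these groups.

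Of the other pericyte genes, Pdgfrb, Abcc9, Kcnj8 and Notch3 lay near 0 against NTg, and were set apart here after their values were seen. Pdgfrb, the receptor through which pericytes are recruited, was at 11.3, 8.65 and 10.1 CPM in NTg and 8.7, 10.5 and 10.9 CPM in the Q33 double knock-in (0.00, SE 0.16, edgeR adjusted p = 1). Abcc9 (-0.02, SE 0.20, 0.97) and Kcnj8 (0.03, SE 0.40, 0.98), the 2 subunits of the vascular potassium channel closed by ATP, and the receptor gene Notch3 (0.16, SE 0.19, 0.65) were as close. The interval of 1 SE around each of these 4 includes 0, which does not show that their levels were equal. Their direction changed in some alternatives of scaling, covariates or libraries.

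Mcam, found on pericytes and on other cells including neurons, was the pericyte gene called. Its levels (ENSMUSG00000032135.15, chr9:44134469-44142727, plus strand) were 60.7, 84.7 and 49.4 CPM in the Q33 double knock-in and 50.7, 39.2 and 33.1 CPM in the Q22 double knock-in, with overlap of 1 library each. The log2 fold change was 0.66 (SE 0.20, edgeR adjusted p = 0.036), where 12.8% of all genes passed in either direction. Against NTg (43, 57 and 38.7 CPM) it was 0.49 (SE 0.20, 0.11). The call was lost without Q22;TDP-43 replicate 2 or 3 or Q33;TDP-43 replicate 1 or 2 (adjusted p 0.084 to 0.18) and under library totals (0.43, 0.1). It was also lost with the Hox level (0.57, 0.098) or the mitochondrial ribosomal share (0.57, 0.45) as a term and with only the groups compared (0.65, 0.072). Of all genes, 8.1%, 0.354% and 7.28% passed in these fits.

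Counted over all 32 genes tested, the Q33 double knock-in had 6 higher and 1 lower against NTg, where 12.1% of all genes passed in either direction. It had 3 higher and 1 lower against the Q22 double knock-in (12.8%), and 2 higher and 1 lower against TDP-43 (12.6%). Against Q33 only Aplnr passed (0.892%). In the test of any difference among the 6 genotypes Aplnr (adjusted p = 0.0023), Acta2 (0.038) and Myh11 (0.04) passed, where 4.16% of all genes did, and Apln was at 0.051. With the mitochondrial ribosomal share as a term all 3 calls were lost (adjusted p 0.41, 0.93 and 0.93), and with the Hox level those of Acta2 (0.21) and Myh11 (0.2). Of all genes, 0.0194% and 0.485% passed with these terms. Myh11 was also lost under library totals (0.083). Acta2 was lost without any 1 of 9 of the 18 libraries and Myh11 without any 1 of 13 (adjusted p 0.051 to 0.15 for both). In the other 7 comparisons of 2 groups and the other 2 interactions 0 of 32 passed by edgeR, where 0% to 0.00969% of all genes did. At an unadjusted p under 0.05 there were 0 to 8 of 32 (2.14% to 13% of all genes in these comparisons), the 8 in Q33 against NTg (7.28%). DESeq2 also called 0.

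Separation of single libraries was also counted, without a test. Against NTg, all 3 Q33 libraries were higher in 9 of the 32 genes (7.79% of all genes), among them Cldn5, Ly6c1 and Kdr. In Q22 this held for 5 of 32 (4.94%), in TDP-43 for 3 (3.64%) and in the Q22 double knock-in for 5 (3.2%). Ocln was above NTg in all 5 knock-in genotypes. The Q33 double knock-in lay wholly above Q22;TDP-43 in 6 of 32 genes (14.8%), above TDP-43 in 4 (13.1%) and above Q33 in 5 (11.4%), with Esam in all 3 of these. It lay wholly below Q33 in Aplnr and Des (11.3%), and below Q22;TDP-43 (14.4%) and TDP-43 (14.1%) in Aplnr alone of the 32. Below NTg, 0 of 32 lay in TDP-43 (4.15%) or in Q22;TDP-43 (3.68%), and Aplnr alone lay there in Q33;TDP-43 (15.8%).

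The endothelial medians against NTg in the other knock-ins were 0.28 in Q33, 0.21 in Q22, 0.20 in Q22;TDP-43 and 0.17 in TDP-43, beside 0.52 in the Q33 double knock-in. These 5 values share the 3 NTg libraries, among them the low replicate 2. Comparisons of the Q33 double knock-in that do not use NTg gave endothelial medians of 0.26 against the Q22 double knock-in, 0.29 against TDP-43 and 0.26 against Q33, with 0 of 17 genes called by edgeR and 1 of 17 at an unadjusted p under 0.05 in each, beside 28.2%, 28.6% and 17.7% of all genes. Under library totals these medians became 0.04, 0.07 and 0.12, beside medians of -0.25, -0.25 and -0.15 for all genes. The Q33 difference from Q22, and that of the Q22 double knock-in from TDP-43, had endothelial medians of -0.02 and -0.05.

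Other genes of vessel signalling and of the barrier, from lists of 45 and 48 genes, had calls at about the rate of all genes. Against NTg, the Q33 double knock-in had 3 of 44 signalling genes tested higher and 4 lower (median 0.18), and 5 of 48 barrier and endothelial regulator genes higher and 2 lower (median 0.27), where 5.68% of all genes were higher and 6.39% lower. The 3 higher, named after their values were seen, were Vegfa (0.58, edgeR adjusted p = 0.022), the ligand of Kdr and Flt1, Flt4 (1.02, 0.008), a VEGF receptor of lymphatic and sprouting endothelium, and Dll4 (1.25, 0.04), a Notch ligand of sprouting and arterial endothelium. Vegfa was at 63.1 ± 11.1 CPM in the Q33 double knock-in, 62 ± 3.01 in TDP-43 and 42.3 ± 2.09 in NTg (SD, n = 3). The 4 lower, also named after their values were seen, were Bmp6, Cxcr4, Agtr1a and Nrp1. Calls of single genes outside the 33, here and below, were not followed through the alternative fits. In those fits 2.57% of all genes passed against NTg with the Hox level as a term and 0.136% with the mitochondrial ribosomal share.

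Genes of these lists that differed among the 6 genotypes, by the rule for names, included Bmp6 (adjusted p = 0.016), a growth factor of the BMP family, Mfsd2a (0.024) and Slc7a1 (0.03). Mfsd2a, the lipid transporter of barrier endothelium, was at 18.7 ± 0.852 CPM in the Q33 double knock-in and 11.6 ± 1.06 in NTg (0.69, SE 0.17, edgeR adjusted p = 0.013). Slc7a1, a carrier of cationic amino acids, was at 67.7 ± 5.67 against 54 ± 1.96 CPM (0.33, SE 0.09, 0.021). Bmp6 fell from 6.15 ± 1.3 to 2.12 ± 0.885 CPM (-1.54, SE 0.28, 0.0032). Apela, the other ligand of the apelin receptor, had 57 counts in all and was not tested.

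Genes that separate arterial from venous endothelium gave 1 call in each list: 1 of 13 arterial and 1 of 8 venous genes were higher against NTg by edgeR, counts too small to set apart from the 5.68% of all genes. The arterial one was Stmn2 (0.58, adjusted p = 0.028), at 302 ± 33.7 CPM in the Q33 double knock-in, a gene of neurons foremost. The venous one, named after its value was seen, was the chemokine-binding receptor gene Ackr1 (0.68, 0.041). Of 15 genes of perivascular and meningeal fibroblasts 1 was higher and 3 were lower (5.68% and 6.39% of all genes), the lower being the collagens Col1a2 (-0.96, adjusted p = 7e-04) and Col6a1 (-1.74, 0.0037) and the growth factor receptor Pdgfra (-0.42, 0.008), which is also a marker of oligodendrocyte precursors. Perivascular macrophage genes had 0 of 4 past the threshold, and 0 at an unadjusted p under 0.05, beside 12.1% and 28.4% of all genes. The 6 erythroid genes, a measure of blood left in the tissue, summed to 34.3 to 61.5 CPM in the Q33 double knock-in and 49.2 to 103 CPM in NTg.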

How the data were processed

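Total RNA of whole spinal cord was depleted of ribosomal RNA and sequenced as stranded read pairs, per the labels' protocols. The authors deposited raw read counts per gene, made with featureCounts 1.6.1 over exons of GENCODE vM19 on mm10 from TopHat alignments, per the file headers. Trim Galore 0.4.1 is named in the submitters' processing notes. Symbols were matched for 54409 of 54446 identifiers (99.93%). Groups were the 6 genotypes of the labels, and replicate numbers follow the order of deposit.

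From the counts, edgeR 4.0.16 (limma 3.58.1, R 4.3.3) fitted 1 quasi-likelihood model to all 18 libraries (12 residual degrees of freedom) with TMM scaling, edgeR's filter on low counts by genotype and Benjamini-Hochberg adjustment over the 20635 genes kept. Tests were two-sided with a threshold of 0.05, and log2 CPM used a prior count of 2. Counts per library (16061359 to 30978678) limit the precision at low levels, and the floor of 3 counts covers counting error only. CPM and RPKM were computed here from the deposited counts and exon lengths.

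All 33 genes are named. Of each other list the 3 genes of smallest adjusted p among genotypes were named, and the 5 genes most like Apln and Aplnr. One gene that this rule names is not reported here. The genes and lists were chosen with earlier results of these data known. Alternatives were library totals, DESeq2-type size factors, DESeq2 1.42.0, other filters, terms for sex, Hox level or mitochondrial ribosomal RNA, its removal, a fit of the compared groups alone and leaving out each library. One more was chosen after seeing the data: leaving out the 3 libraries of high Hox10 and Hox11 level outside the Q33;TDP-43 group. The scripts were tested on simulated data.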

Additional observations from a re-analysis of the deposited data

Results flagged for a closer look

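Of the tests of whether an effect differs between groups, 1 among these vascular genes passed: the tract length difference of Aplnr was not the same with and without TDP-43 (log2 interaction of -4.15 with SE 0.75, adjusted p = 0.026 by edgeR). With TDP-43 the Q33 carriers differed from the Q22 carriers by -4.49 (SE 0.58), at 0.376 ± 0.232 against 8.56 ± 5.04 CPM (SD, n = 3), and without it by -0.34 (SE 0.45), at 4.01 ± 0.531 against 5.06 ± 0.819 CPM. All 3 libraries of Q33;TDP-43 were below each of the other 15. The interaction call was lost without any 1 of several libraries in it (edgeR adjusted p 0.051 to 0.12). It was also lost with the mitochondrial ribosomal share as a term (0.34) and without the 3 other libraries of high Hox level (0.059), where 0% of all genes passed. Groups of 3 are too small for a check of single libraries as outliers.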

How the results depend on the processing

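No paired analysis was possible because the labels give no number or source that animals of different genotypes share. Counts are of the 32 vascular genes tested, and the cause of each shift was not tested. Against NTg the 7 calls of the Q33;TDP-43 group became 3 under library totals, 12 with DESeq2, 17 with no filter on low counts, 4 with a sex term, 3 with the Hox10 and Hox11 term, 1 with the mitochondrial ribosomal RNA term, 4 with only the groups compared, 4 without the 3 other libraries of high Hox level, and 3 to 6 without 1 library. Beside the 7 calls, 12.1% of all genes passed. In these settings, in the same order, 20.1%, 18%, 8.12%, 10.2%, 2.57%, 0.136%, 8.11% and 9.23% did, and 2.84% to 14.4% without 1 library. Against Q22;TDP-43 the 4 calls became 2 under library totals, with the Hox term or with only the groups compared, 1 with the mitochondrial term, and 1 to 5 without 1 library. Of all genes 12.8% passed there, and in these settings, in order, 19%, 8.1%, 7.28%, 0.354% and 3.39% to 14.9%. Against TDP-43 the 3 calls became 1 under library totals, with the Hox term or with only the groups compared, 6 with DESeq2, 10 with no filter, 0 with the mitochondrial term and 1 to 6 without 1 library. Of all genes 12.6% passed there, and in these settings, in order, 19.8%, 1.55%, 1.33%, 19.6%, 8.23%, 0.0145% and 2.6% to 16.2%. Against Q33 the 1 call became 2 with no filter, 0 with the mitochondrial term or without the 3 libraries of high Hox level, and 0 to 1 without 1 library. Of all genes 0.892% passed there, and in these settings, in order, 2.92%, 0%, 0% and 0.033% to 1.86%. The tract length interaction went from 1 to 0 with the mitochondrial term or without those 3 libraries, and 0 to 1 without 1 library. Of all genes 0.344% passed there, 0% in each of the first settings and 0.0283% to 1.18% without 1 library. The test of any genotype went from 3 to 5 with DESeq2, 12 with no filter, 1 with the Hox term, 0 with the mitochondrial term and 1 to 4 without 1 library. Of all genes 4.16% passed there, and in these settings, in order, 14.9%, 7.68%, 0.485%, 0.0194% and 0.307% to 7.37%. With no filter, where the others gave 0, there were 3 calls in Q22 and 3 in Q33 against NTg, 1 in Q22;TDP-43 against Q22, 1 in the interaction of Q22 with TDP-43 and 2 in that of Q33 with TDP-43. With no filter 0.607%, 1.04%, 0.372%, 0.492% and 1.36% of all genes passed in these. The interaction of Q33 with TDP-43 also had 1 call without TDP-43 replicate 2, where 0.227% of all genes passed.

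For the Q33;TDP-43 group against NTg, 7 genes near 0 changed sign. Under library totals these were Slc2a1 (-0.12), Pdgfrb (-0.24), Kcnj8 (-0.21), Notch3 (-0.09) and Des (-0.01). With the Hox term they were Abcc9 (0.01), Kcnj8 (-0.02) and Notch3 (-0.02), with the mitochondrial term Abcc9 (0.22), Notch3 (-0.17) and Des (-0.27), and with the sex term Abcc9 (0.04). Abcc9 was at 0 with no filter, and Pdgfrb at -0.01 with a mean of at least 1 CPM or with only the groups compared. Without 1 library the values ranged from -0.09 to 0.11 for Pdgfrb, -0.17 to 0.2 for Abcc9, -0.37 to 0.39 for Kcnj8, -0.85 to 0.27 for Tagln and -0.08 to 0.48 for Des. Of 779 values for single genes, 606 kept direction and side of the threshold, 120 lost a call, 25 gained 1 and 28 changed sign. At 5 to 16 counts per library, Aplnr in Q33;TDP-43 has a counting error that no setting removes.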
